A study of Mus musculus with 24 samples.

Results

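The MEIS and PBX genes encode homeodomain transcription factors of the TALE class, which is named for a loop of extra amino acids within the DNA-binding homeodomain. The 6 genes described here, *Meis1*, *Meis2*, *Meis3*, *Pbx2*, *Pbx3* and *Pbx4*, were taken by their symbols from count tables of 26411 genes. Their RNA levels were examined in 24 libraries of neural stem and progenitor cells (NSPCs) in 6 groups of 4, made up of 3 genotypes in each of 2 culture conditions. The source of the cells was the dorsal telencephalon, from which the cerebral cortex forms, taken from mouse embryos at E12.5 on a C57BL/6 background. Embryos carried no, one or a pair of *Kat6a* null alleles (*Kat6a*+/+, *Kat6a*+/– and *Kat6a*–/–), in which a germline deletion of exons leads to an early stop within the catalytic domain of a histone acetyltransferase, so that the loss affected every cell of a mutant embryo from the start. Proliferating NSPCs were kept for 3 days in growth factors, and differentiating NSPCs for 3 days on a coated surface with serum instead. Each library came from cells of 1 embryo, which had been passaged and frozen before these cultures.

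MEIS proteins bind PBX proteins, and the pair enters the nucleus and binds DNA together, often next to a HOX protein. In the forebrain, where HOX genes are silent, MEIS and PBX proteins work with other homeodomain factors such as PAX6 and the DLX proteins. *Meis2* is known for its expression in the developing striatum and in newborn interneurons of the olfactory bulb, and *Meis1* for its role in blood stem cells and leukaemia, where KAT6A and MLL proteins act on it together with HOX genes. *Meis3* is known from hindbrain patterning, *Pbx2* is broadly expressed, *Pbx3* is needed in the hindbrain and *Pbx4* is best known from the testis.

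By the GENCODE annotation of mm39, *Meis1* (Entrez 17268) lies at chr11:18829817-18969749 and *Meis2* (Entrez 17536) at chr2:115693062-115896341, both on the minus strand. *Meis3* (Entrez 17537) lies at chr7:15909015-15920439 and *Pbx2* (Entrez 18515) at chr17:34810240-34816375, both on the plus strand. *Pbx3* (Entrez 18516) lies on the minus strand at chr2:34061469-34263154 and *Pbx4* (Entrez 80720) on the plus strand at chr8:70284110-70325822. All 6 are protein-coding. Noncoding genes overlap *Meis1*, *Meis2*, *Pbx2* and *Pbx3* on the opposite strand, *Gm37818*, *2900018N21Rik* and *2610001A08Rik* overlap *Meis1* and *Gpsm3* overlaps *Pbx2* on the gene's own strand, and no strand setting of the counting is given in the sources used here. These overlaps are of whole gene spans, introns included. Whether reads of such partners entered the counts of a member was not tested.

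The promoters of *Meis1*, *Meis2* and *Pbx4* are shown because these are the genes that were lower in *Kat6a*–/– NSPCs below. Each sequence is the gene's RefSeq entry (table build GRCm38.p6), runs 5′ to 3′ on the strand of the gene from 250 bases before to 50 bases after the start, and matched mm39 at 1 place. That start lies within the gene span given above, and is 3 (*Meis1*), 102 (*Meis2*) and 0 (*Pbx4*) bases from the nearest GENCODE start. Windows at other starts were not examined. Capitals mark CG dinucleotides, which CXXC domains such as that of MLL1 recognise when unmethylated.
*Meis1*, chr11:18968920-18969219, minus strand: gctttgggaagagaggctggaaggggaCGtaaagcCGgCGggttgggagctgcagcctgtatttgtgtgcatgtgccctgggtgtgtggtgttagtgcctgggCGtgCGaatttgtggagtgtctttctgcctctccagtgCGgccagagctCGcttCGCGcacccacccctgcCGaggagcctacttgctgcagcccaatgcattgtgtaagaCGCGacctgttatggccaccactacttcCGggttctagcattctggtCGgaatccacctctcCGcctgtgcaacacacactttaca
*Meis2*, chr2:115895051-115895350, minus strand: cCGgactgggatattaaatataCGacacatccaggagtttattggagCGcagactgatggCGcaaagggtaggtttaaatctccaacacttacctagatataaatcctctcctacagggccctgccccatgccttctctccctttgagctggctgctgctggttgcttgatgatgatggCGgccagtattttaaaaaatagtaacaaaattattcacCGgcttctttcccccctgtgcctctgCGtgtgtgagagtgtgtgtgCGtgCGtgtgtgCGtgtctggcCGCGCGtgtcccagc
*Pbx4*, chr8:70285024-70285323, plus strand: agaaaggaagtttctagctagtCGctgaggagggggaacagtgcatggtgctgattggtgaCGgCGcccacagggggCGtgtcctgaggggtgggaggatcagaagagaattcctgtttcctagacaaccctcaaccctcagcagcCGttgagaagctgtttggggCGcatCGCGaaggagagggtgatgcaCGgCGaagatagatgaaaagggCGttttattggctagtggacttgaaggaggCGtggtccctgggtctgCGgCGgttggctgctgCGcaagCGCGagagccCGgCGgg

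These windows of 300 bases held 15 CG dinucleotides for *Meis1*, 13 for *Meis2* and 19 for *Pbx4*. The windows of *Meis3* and *Pbx2*, which were not called in these comparisons, held 21 and 29. Over 32851 RefSeq promoters of this length the median was 7 and the 90th percentile 31, so that all 5 lay above the median. *Pbx3* has no entry. The MEIS motif TGACAG, searched on both strands, occurred in 19.2% of all promoters, and the PBX and HOX motif TGATNNAT in 8.8%, but neither was found in the 5 windows. That says only that these letters are absent from these windows.

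Total counts per library ranged from 7826660 to 40838203. Levels are given as CPM, the count per 1000000 counts of the library after TMM scaling. Single libraries held 217 to 1265 counts of *Meis1*, 317 to 4915 of *Meis2* and 112 to 728 of *Meis3*. They held 315 to 1948 counts of *Pbx2*, 294 to 1726 of *Pbx3* and 39 to 371 of *Pbx4*, which is therefore the least precise of the 6. Of the 39 HOX genes, 38 had no count in any proliferating *Kat6a*+/+ library. The 10 dorsal telencephalon progenitor markers summed to between 7300 and 8190 CPM in those libraries, with *Emx1* alone below 1 CPM. Genes of the Y chromosome were read in 3 of 4 *Kat6a*+/+ libraries but in 1 of 4 libraries of each mutant genotype, in both conditions. Condition went together with the RNA extraction kit, and the effects of both cannot be told apart. The measurements are of bulk RNA, in which fewer cells of a type and less RNA per cell cannot be told apart.

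All 6 genes were expressed in every library. Per kilobase of the counted transcript length, the mean levels in proliferating *Kat6a*+/+ NSPCs lay between 5.13 CPM per kb for *Pbx4* and 15.7 CPM per kb for *Pbx3*, with *Meis1* at 9.33, *Meis3* at 9.65, *Meis2* at 12.6 and *Pbx2* at 14.3 CPM per kb. In differentiating *Kat6a*+/+ NSPCs *Meis2* stood first at 28.01 CPM per kb, ahead of *Pbx2* at 14.9 and *Meis3* at 14.2 CPM per kb. In differentiating *Kat6a*–/– NSPCs *Meis2* was at 10.3 CPM per kb, below *Meis3* at 13.6 and *Pbx2* at 13.4 CPM per kb. The plot of levels by library shows which groups overlap.

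**Figure D1:**
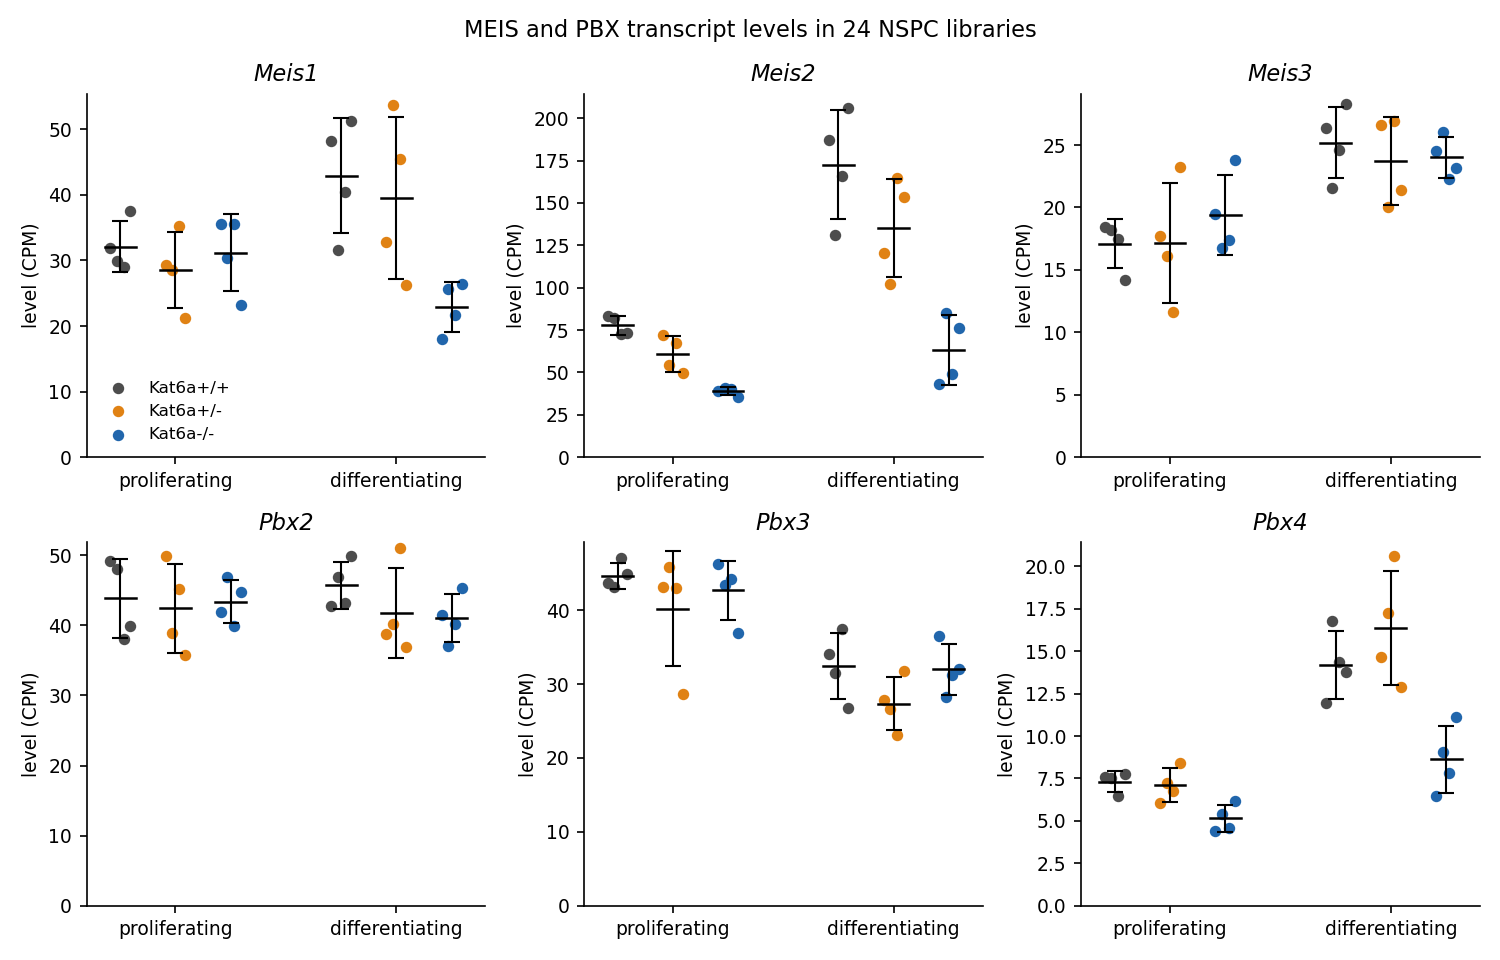
CPM of 6 MEIS and PBX genes (vertical axes, linear and starting at 0) in 24 NSPC libraries by culture condition and genotype. Points are libraries, and black lines with bars are the mean ± SD of 4. *Meis2* was lower in every *Kat6a*–/– library than in any *Kat6a*+/+ library in both conditions, *Meis1* in differentiating NSPCs, and *Pbx4* in both conditions.

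Proliferating *Kat6a*–/– NSPCs were first set against *Kat6a*+/+ NSPCs, which asks whether MEIS and PBX genes need *Kat6a* while cells divide. *Meis2* fell to 0.5 of its wild-type mean, *Pbx4* fell to 0.704, and no call was made for *Meis1*, *Meis3*, *Pbx2* or *Pbx3*. Calls required a false discovery rate (FDR) under 0.05 in the limma fit of all genes. Of the 6 genes, 2 were called (33.3%), both lower, where 30.0% of all 12276 tested genes were called, 13.8% lower and 16.2% higher. The median log2 fold-change of the 6 was −0.00016, against −0.0045 over all genes tested.

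*Meis2* was at 83.3, 82.2, 72.7 and 73.3 CPM in the proliferating *Kat6a*+/+ libraries (replicates 1 to 4) and at 39.3, 40.9, 40.2 and 35.3 CPM in the *Kat6a*–/– libraries. The 2 groups were far apart, with means of 77.9 ± 5.65 and 38.9 ± 2.49 CPM (SD, n = 4). The log2 fold-change was −0.92 (SE 0.10, limma FDR 7.0e-05). Among all tested genes, 17.6% had every *Kat6a*–/– library below every *Kat6a*+/+ library. Between littermates the log2 ratio was −0.86 in litter 4633 (1 *Kat6a*+/+ and 2 *Kat6a*–/– libraries) and −0.87 in litter 4746 (1 of each). These libraries are also part of the fit.

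*Pbx4* was at 7.59, 7.52, 6.44 and 7.74 CPM in proliferating *Kat6a*+/+ and at 4.42, 5.41, 4.60 and 6.18 CPM in *Kat6a*–/– NSPCs. The groups did not overlap, but the highest *Kat6a*–/– library came close to the lowest *Kat6a*+/+ library. The log2 fold-change was −0.51 (SE 0.16, limma FDR 0.0267). This call was lost in edgeR (FDR 0.0527), with fixed litter terms (FDR 0.0690), and without *Kat6a*+/+ replicate 1 (FDR 0.0741) or 4 (FDR 0.0560) or *Kat6a*–/– replicate 1 (FDR 0.0713) or 3 (FDR 0.0902), with the estimate between −0.43 and −0.59.

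For the other 4 genes the *Kat6a*–/– and *Kat6a*+/+ ranges overlapped in proliferating NSPCs. *Meis1* had a log2 fold-change of 0.01 with a 95% interval of −0.28 to 0.30, and *Pbx2* of 0.06 with an interval of −0.17 to 0.28. *Pbx3* was at −0.01 (−0.24 to 0.21) and *Meis3* at 0.19 (−0.14 to 0.53). A fall as large as that of *Meis2* lay outside each of these intervals.

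In differentiating NSPCs the same genotypes were compared to ask which of the genes depend on *Kat6a* when growth factors are withdrawn. *Meis2* again fell most, *Meis1* fell to 0.535 of its wild-type mean and *Pbx4* to 0.607, while *Meis3*, *Pbx2* and *Pbx3* were not called. Of the 6 genes, 3 were called, each lower. In this comparison 54.4% of 13339 tested genes were called, 27.7% lower and 26.7% higher. The median log2 fold-change of the 6 was −0.45, against −0.02 over all genes tested.

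*Meis2* was at 187, 131, 166 and 206 CPM in differentiating *Kat6a*+/+ NSPCs. It was at 43.1, 85.3, 48.8 and 76.3 CPM in *Kat6a*–/– NSPCs, all below the lowest *Kat6a*+/+ library. The log2 fold-change was −1.78 (SE 0.15, limma FDR 4.3e-06), and the ratio of the unweighted means was 0.367. Lower ranges without overlap were seen for 14.7% of tested genes. Library quality weights entered this fit, and of the weight given to the *Kat6a*–/– group, 69.0% fell on replicate 3 and 4.22% on replicate 2. Without replicate 3 the *Meis2* estimate was −1.37 and the call was kept at an FDR of 0.0217. The littermate log2 ratios were −1.37 in litter 4633 (1 *Kat6a*+/+ and 2 *Kat6a*–/– libraries) and −2.08 in litter 4746 (1 of each, the *Kat6a*–/– library being replicate 3). These libraries are part of the fit, so the ratios are no separate check.

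*Meis1* was at 48.2, 31.6, 40.5 and 51.3 CPM in differentiating *Kat6a*+/+ and at 18.1, 25.6, 21.7 and 26.4 CPM in *Kat6a*–/– NSPCs. The groups did not overlap, although *Kat6a*+/+ replicate 2 lay near the *Kat6a*–/– libraries. The log2 fold-change was −1.02 (SE 0.16, limma FDR 0.00024). The call was lost without *Kat6a*–/– replicate 1 (−0.88, FDR 0.104) or replicate 3 (−0.93, FDR 0.134), while the other alternatives called it.

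*Pbx4* was at 11.9, 16.8, 14.4 and 13.8 CPM in differentiating *Kat6a*+/+ and at 6.47, 9.08, 7.83 and 11.1 CPM in *Kat6a*–/– NSPCs. All *Kat6a*–/– libraries were again below the *Kat6a*+/+ range. The log2 fold-change was −0.75 (SE 0.14, limma FDR 0.00077), and the same libraries decided the call, which was lost without *Kat6a*–/– replicate 1 (FDR 0.135) or 3 (FDR 0.174).

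Y-linked reads went together with genotype in part. Among differentiating libraries without such reads, 1 *Kat6a*+/+ library had 131 CPM of *Meis2* and 31.6 CPM of *Meis1*, and 3 *Kat6a*–/– libraries had at most 85.3 CPM of *Meis2* and 26.4 CPM of *Meis1*. In libraries with such reads, 3 *Kat6a*+/+ libraries had at least 166 CPM of *Meis2* and 40.5 CPM of *Meis1*, and 1 *Kat6a*–/– library had 48.8 and 21.7 CPM. For *Pbx4* the single *Kat6a*+/+ library without Y-linked reads was the highest of its group, at 16.8 CPM. The log2 ratio of means in libraries with and without Y-linked reads was −1.93 and −0.94 for *Meis2*, −1.11 and −0.44 for *Meis1*, and −0.77 and −0.92 for *Pbx4*, each with 1 library in an arm and thus untested.

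*Meis3* (−0.15, 95% interval −0.35 to 0.05), *Pbx2* (−0.11, −0.29 to 0.06) and *Pbx3* (−0.08, −0.30 to 0.15) had overlapping ranges in differentiating NSPCs, and a fall as large as that of *Pbx4* lay outside each interval. When libraries were scaled by their totals instead of TMM, which shifted the median over all genes to −0.17, *Meis3* (−0.31) and *Pbx2* (−0.27) were called as well. Both were also called without *Kat6a*–/– replicate 2, and *Meis3* without replicate 4.

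**Figure D2:**
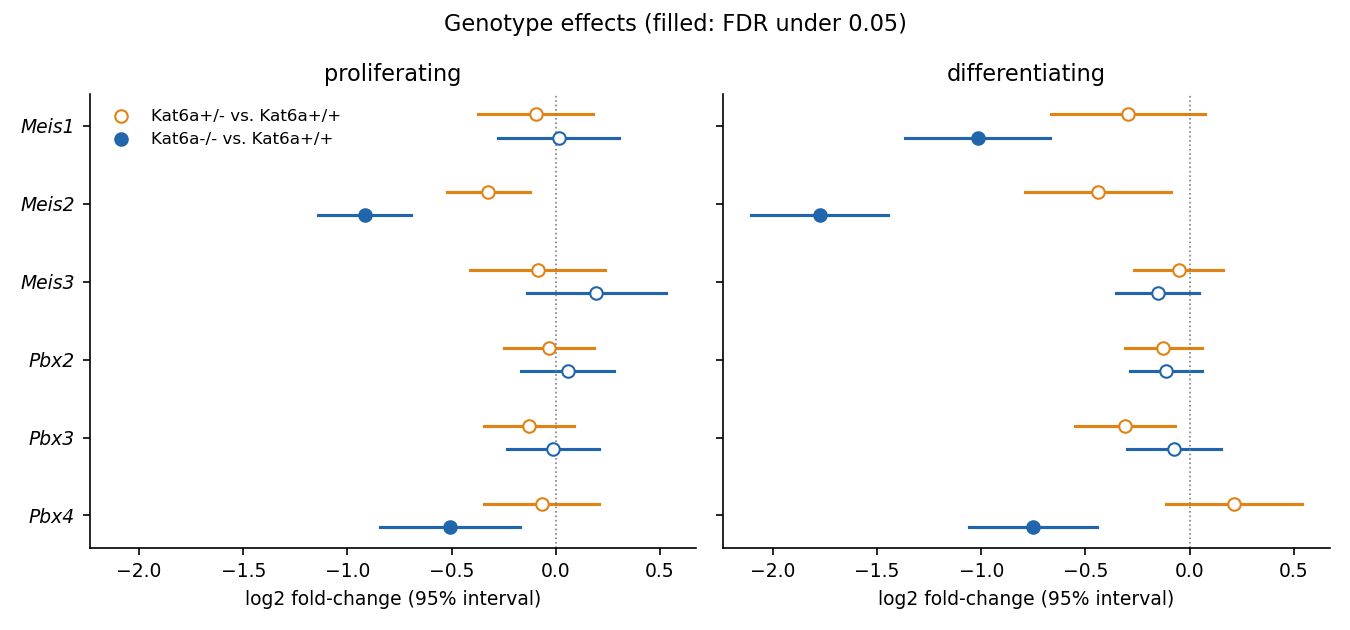
Log2 fold-changes of the 6 genes against *Kat6a*+/+ NSPCs (horizontal axis), with 95% intervals from the limma fits, for *Kat6a*+/– (orange) and *Kat6a*–/– (blue) NSPCs in each condition. Filled points were called. The *Kat6a*–/– estimate of *Meis2* was −0.92 in proliferating and −1.78 in differentiating NSPCs, and no *Kat6a*+/– point is filled.

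Loss of one *Kat6a* allele was examined next, against the same *Kat6a*+/+ libraries as above. None of the 6 genes was called in *Kat6a*+/– vs. *Kat6a*+/+ NSPCs in either condition, and none of all genes tested was called by limma (percent called 0), although 912 genes in proliferating and 1926 in differentiating NSPCs had an unadjusted p under 0.05. Over all genes edgeR also called 0 in both conditions and DESeq2 called 28 and 8, with no member among them. The limma count in differentiating NSPCs was 349 without *Kat6a*+/– replicate 3 and 167 without *Kat6a*+/+ replicate 2, again with no member. Without adjustment, *Meis2* passed that limit in both conditions and *Pbx3* in differentiating NSPCs. *Meis2* was at 71.9, 54.3, 67.5 and 49.5 CPM in proliferating *Kat6a*+/– NSPCs, just below the *Kat6a*+/+ range and above the *Kat6a*–/– range. Of all tested genes, 2.64% had *Kat6a*+/– libraries wholly below the *Kat6a*+/+ range, and 6.07% had *Kat6a*–/– libraries wholly below the *Kat6a*+/– range. The log2 fold-change was −0.32 (95% interval −0.52 to −0.12, limma FDR 0.442).

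In differentiating *Kat6a*+/– NSPCs *Meis2* was at 121, 102, 165 and 154 CPM, which overlapped *Kat6a*+/+ but not *Kat6a*–/– NSPCs. The latter kind of gap was seen for 9.48% of tested genes, and for *Pbx4* as well. The log2 fold-change of *Meis2* against *Kat6a*+/+ NSPCs was −0.44 (−0.79 to −0.09, limma FDR 0.269). *Pbx3* was at 27.9, 26.6, 23.1 and 31.8 CPM, with *Kat6a*+/+ libraries at 34.1, 31.5, 37.5 and 26.7 CPM, and differed by −0.31 (−0.55 to −0.07, limma FDR 0.267). *Meis1* at −0.30 (−0.67 to 0.08) and *Pbx4* at 0.21 (−0.11 to 0.54) were less certain still. The *Kat6a*+/– mean of *Meis2* was 0.781 of the *Kat6a*+/+ mean in proliferating and 0.783 in differentiating NSPCs. The *Kat6a*+/– mean lay between the means of the other genotypes for 3 of the 6 genes in proliferating and for 3 in differentiating NSPCs, and for *Meis2* it did so in both.

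The comparison of *Kat6a*–/– with *Kat6a*+/– NSPCs uses the same *Kat6a*–/– libraries as above and asks what loss of the remaining allele adds. In proliferating NSPCs *Meis2* alone was called (1 of 6, 16.7%, where 14.8% of all genes were called and 6.30% were lower), at a log2 fold-change of −0.59 (SE 0.10, limma FDR 0.00285). *Pbx4* had −0.44 (SE 0.16, limma FDR 0.0753), and its ranges overlapped. In differentiating NSPCs *Meis2* (−1.34, SE 0.18, limma FDR 0.00031), *Pbx4* (−0.96, SE 0.17, limma FDR 0.0013) and *Meis1* (−0.72, SE 0.19, limma FDR 0.0114) were called lower, 3 of 6 where 37.5% of all genes were called and 18.5% were lower. The 5007 genes behind this share became 350 without *Kat6a*–/– replicate 1 and 386 with litter terms, and fewer still without replicate 3. These 3 calls were lost without *Kat6a*–/– replicate 1 (FDR 0.105 to 0.439) or 3 (FDR 0.178 to 0.471). A fixed litter term ended the calls of *Meis1* (−1.02, FDR 0.0520) and *Meis2* (−1.12, FDR 0.0591), and *Meis1* was also not called without quality weights (FDR 0.0535).

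The spread around the *Kat6a*–/– against *Kat6a*+/+ estimates under every setting is shown for the 3 genes called. *Meis2* kept its call in each of 20 alternatives in both conditions, with estimates of −0.98 to −0.81 in proliferating and −1.95 to −1.37 in differentiating NSPCs. *Pbx4* was called in 14 of 20 alternatives in proliferating and in 18 of 20 in differentiating NSPCs. *Meis1* was called in 18 of 20 in differentiating and in none of 20 in proliferating NSPCs, where its limma FDR was 0.951 and its unadjusted p 0.924, and edgeR and DESeq2 did not call it either.

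**Figure D3:**
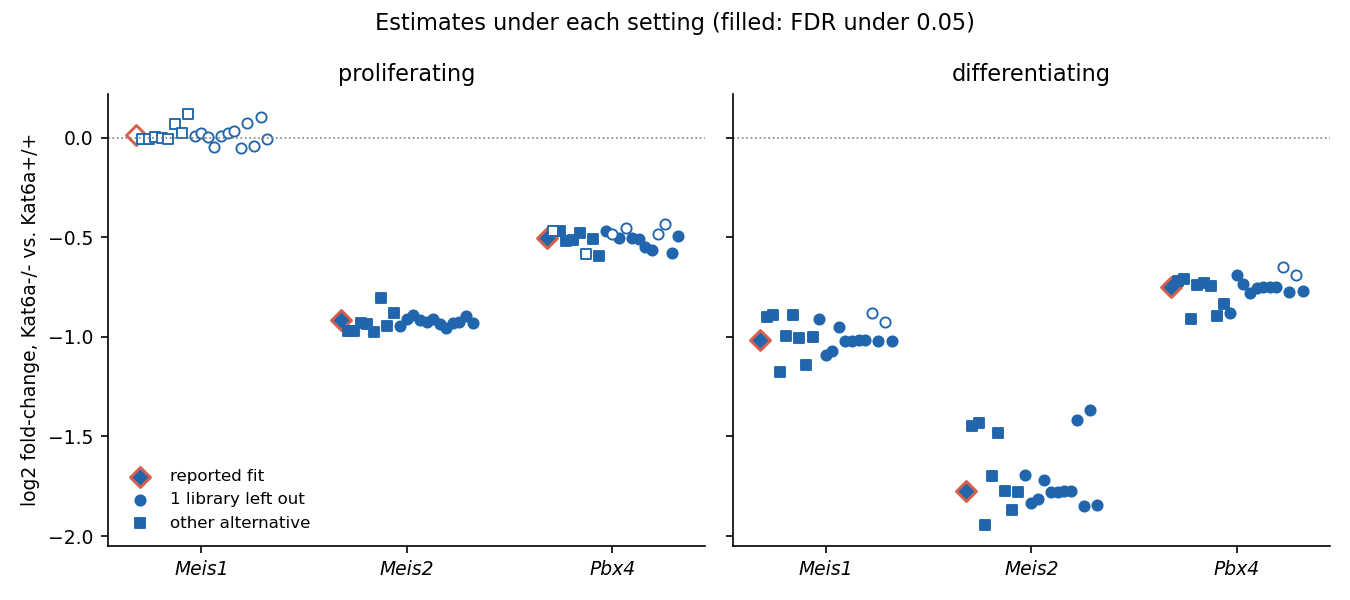
Log2 fold-change of *Meis1*, *Meis2* and *Pbx4* in *Kat6a*–/– vs. *Kat6a*+/+ NSPCs (vertical axis) in the reported fit (diamonds), with 1 library left out (circles) and under the other alternatives (squares). Filled symbols were called. Every *Meis2* symbol is filled, between −0.98 and −0.81 in proliferating and between −1.95 and −1.37 in differentiating NSPCs.

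To describe how the genes move when growth factors are replaced by serum, differentiating NSPCs were compared with proliferating NSPCs within each genotype. In *Kat6a*+/+ NSPCs *Meis2*, *Pbx4* and *Meis3* rose and *Pbx3* fell. These 4 of 6 calls (66.7%) stand beside 72.9% called over all 13590 genes, 36.7% higher and 36.2% lower, and a kit that changed with condition. *Meis2* rose by 1.12 (SE 0.19, limma FDR 2.0e-05) and *Pbx4* by 0.93 (SE 0.16, limma FDR 2.4e-05) on the log2 scale, *Meis3* rose by 0.52 (SE 0.14, limma FDR 0.0025) and *Pbx3* fell by 0.47 (SE 0.12, limma FDR 0.0019). *Meis1* was at 31.98, 29.9, 29.0 and 37.6 CPM in proliferating *Kat6a*+/+ libraries, within reach of the differentiating range. Its estimate was 0.42 (95% interval 0.02 to 0.82, limma FDR 0.0571), and it was called in 11 of 33 alternatives, most clearly without differentiating *Kat6a*+/+ replicate 2 (0.58, FDR 0.0112).

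The *Kat6a*+/– NSPCs gave the same 4 calls, at 1.13 for *Meis2*, 1.21 for *Pbx4*, 0.52 for *Meis3* and −0.55 for *Pbx3*, where 69.7% of all genes were called, 35.4% higher and 34.2% lower. The *Meis3* call was lost without proliferating *Kat6a*+/– replicate 3 (0.34, FDR 0.0584), and *Meis1* was called by edgeR, by DESeq2 and without differentiating *Kat6a*+/– replicate 4 (0.60, FDR 0.0131). In *Kat6a*–/– NSPCs 3 genes were called, where 69.2% of all genes were called, 35.8% higher and 33.5% lower. *Meis2* rose by 0.66 (SE 0.22, limma FDR 0.0123), *Pbx4* rose by 0.72 (SE 0.24, limma FDR 0.0113) and *Pbx3* fell by 0.42 (SE 0.14, limma FDR 0.0095). The *Meis2* call was lost without differentiating *Kat6a*–/– replicate 2 (0.46, FDR 0.0589). *Meis1* was at 35.6, 30.4, 35.6 and 23.2 CPM in proliferating and, as above, at 18.1 to 26.4 CPM in differentiating *Kat6a*–/– NSPCs, ranges that overlap through proliferating replicate 4. Its estimate was −0.42 (−0.91 to 0.06, limma FDR 0.114). *Meis1* was called lower with litter terms (−0.45, FDR 0.0423). Without proliferating *Kat6a*–/– replicate 4 both *Meis1* (−0.57, FDR 0.0480) and *Meis3* (0.42, FDR 0.0480) were called.

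For 6 embryos the labels give a library in each condition. *Meis2* and *Pbx4* were higher in the differentiating library of 6 of 6 embryos, by 0.28 to 1.19 and by 0.66 to 1.16 on the log2 scale. *Pbx3* was lower in 6 of 6, by log2 ratios of −0.62 to −0.20. *Meis3* was higher in 5 of 6 and *Pbx2* in 3 of 6. *Meis1* divided the embryos, since both *Kat6a*+/+ embryos rose, by 0.59 and 0.48, the *Kat6a*+/– embryo had −0.10, and the *Kat6a*–/– embryos had −0.25, −0.71 and 0.19.

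**Figure D4:**
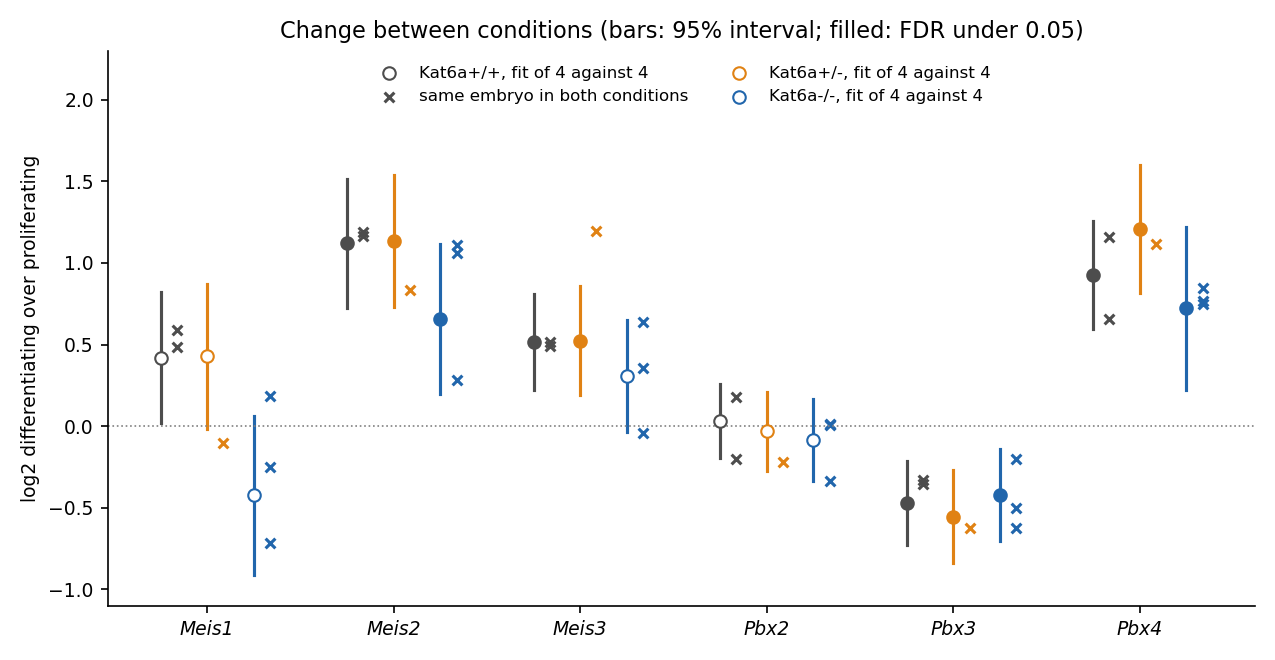
Log2 ratio of differentiating over proliferating levels (vertical axis) for 6 genes in each genotype. Circles with bars are limma estimates with 95% intervals, filled where called, and crosses are single embryos with a library in both conditions. *Meis1* has estimates of 0.42 in *Kat6a*+/+ and −0.42 in *Kat6a*–/– NSPCs, neither called.

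Whether the *Kat6a*–/– effect differed between conditions was tested as an interaction in the fit of all 24 libraries. None of the 6 genes was called, where 13.9% of 13590 genes were called, and 1 of the 6, *Meis1*, had an unadjusted p under 0.05. The *Meis1* interaction was −0.84 (SE 0.30, 95% interval −1.47 to −0.21, limma FDR 0.0673), and it was called by edgeR (FDR 0.0462), by DESeq2 (FDR 0.026) and with litter terms (FDR 0.0265). It was also called with library totals (FDR 0.0285) and without differentiating *Kat6a*+/+ replicate 2, *Kat6a*+/– replicate 2 or 4 or *Kat6a*–/– replicate 2, or proliferating *Kat6a*–/– replicate 4 (FDR 0.0227 to 0.0453), which makes 10 of 33 alternatives, one of them without both proliferating libraries of litter 5063 (FDR 0.0361). *Meis2* had −0.46 (−1.07 to 0.14, limma FDR 0.302) and *Pbx4* −0.20 (−0.80 to 0.39, limma FDR 0.685), so a difference of *Kat6a* dependence between conditions was not shown for either. For *Pbx2*, *Meis3* and *Pbx3* the intervals reached from −0.66 at the lowest to 0.43 at the highest. No interaction with *Kat6a*+/– was called by limma (percent called 0), and 412 genes had an unadjusted p under 0.05.

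Ranked by mean CPM over the 6 groups, *Meis2* ran from differentiating *Kat6a*+/+ (173) and *Kat6a*+/– (135) through proliferating *Kat6a*+/+ (77.9), differentiating *Kat6a*–/– (63.4) and proliferating *Kat6a*+/– (60.8) to proliferating *Kat6a*–/– NSPCs (38.9 CPM). Neighbours in this order did not overlap at 2 places, below differentiating *Kat6a*+/– and above proliferating *Kat6a*–/–. Differentiating *Kat6a*–/– NSPCs thus held a *Meis2* level that overlapped that of proliferating *Kat6a*+/+ NSPCs. *Pbx4* ran from differentiating *Kat6a*+/– (16.4) and *Kat6a*+/+ (14.2) to differentiating *Kat6a*–/– (8.62) and the proliferating groups (7.32 CPM in *Kat6a*+/+, 7.11 in *Kat6a*+/– and 5.15 in *Kat6a*–/–), with a gap at 1 place, between the differentiating *Kat6a*+/+ and *Kat6a*–/– groups. For *Meis1* each neighbour overlapped the next, from 42.9 CPM in differentiating *Kat6a*+/+ to 23.0 CPM in differentiating *Kat6a*–/– NSPCs. The same held for *Meis3* (25.2 to 17.1 CPM), *Pbx2* (45.7 to 41.0 CPM) and *Pbx3* (44.7 to 27.4 CPM).

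The genes most like each member were found by Pearson's r of log2 CPM over the 24 libraries after each condition's mean was removed, among 13589 other genes. All points share the same libraries and genotypes, so that genes which moved with genotype correlate for that reason. *Meis2* was most like *Satb1*, a chromatin organiser (r = 0.955), *Arid2*, a subunit of a chromatin remodelling complex (r = 0.948), and *Tenm3*, a cell adhesion protein (r = 0.947). *Meis1* was most like *Prr18* (r = 0.930), *Mfng*, which glycosylates Notch receptors (r = 0.926), and *Garem2* (r = 0.896). *Pbx4* was most like *Neurl4* (r = 0.889), *Bcl2l12* (r = 0.884) and the kinase gene *Pkn3* (r = 0.867). Likeness was lower for *Meis3* with *Vsig10l* and *Dcaf5* (r = 0.759 and 0.751), for *Pbx2* with *Six5*, *Srsf5* and *Zranb1* (0.730 to 0.688) and for *Pbx3* with *Gfpt2*, *Tspan5* and *Rsl24d1* (0.683 to 0.670). Among the members, r was 0.729 between *Meis2* and *Pbx4* and 0.664 between *Meis1* and *Meis2*.

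The remaining TALE genes, PKNOX, TGIF and IRX, were then counted in *Kat6a*–/– vs. *Kat6a*+/+ NSPCs. None of 6 tested was called in proliferating NSPCs by limma or by any alternative, edgeR and DESeq2 included, and none of the 6 had an unadjusted p under 0.05. Over all genes limma called 30.0% in that comparison. In differentiating NSPCs 7 of 8 were called, 4 higher and 3 lower, beside 54.4% of all genes. The median log2 fold-change of the 8 was 0.65. The largest were *Irx2* (2.15, SE 0.67, limma FDR 0.0163), *Irx1* (1.84, SE 0.71, limma FDR 0.0442) and *Tgif2*, a repressor of TGF-beta responses (−1.08, SE 0.16, limma FDR 0.00016). *Irx1* and *Irx2* had means of at most 2.20 CPM, and *Tgif2* went from 52.1 ± 8.60 to 26.5 ± 6.34 CPM (SD, n = 4). *Irx2* was called in 11 of 20 alternatives and *Irx1* in 9, and both calls were lost in edgeR (FDR 0.479 and 0.302) and DESeq2 (FDR 0.475 and 0.266), where the estimate of *Irx2* was 1.01 and 1.02. The count was 1 without *Kat6a*–/– replicate 1, 0 without replicate 3, 4 without the low-count filter, 3 without *Kat6a*+/+ replicate 1 and 4 without *Kat6a*+/+ replicate 3. It was 2 in edgeR, 3 in DESeq2, 2 without quality weights and 2 with litter as a fixed term.

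The HOX genes, whose proteins bind DNA together with MEIS and PBX proteins, had too few reads for a test in either condition. In proliferating NSPCs the 39 genes together had 0 or 1 count per library in *Kat6a*+/+ and *Kat6a*+/– NSPCs and between 8 and 17 counts in *Kat6a*–/– NSPCs. In differentiating NSPCs they had 0 to 2 counts in *Kat6a*+/+, 2 to 9 in *Kat6a*+/– and 18 to 85 in *Kat6a*–/– libraries. Of the 39 genes, 32 in proliferating and 28 in differentiating *Kat6a*–/– NSPCs had no count in any library.

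Of 8 forebrain partners and interactors, 4 could be tested in proliferating NSPCs, where *Sp9*, an interneuron factor, fell (−2.36, SE 0.54, limma FDR 0.0062) and *Pbxip1*, which encodes a protein that binds PBX, rose (0.46, SE 0.13, limma FDR 0.0208). *Sp9* was low in both groups, at 1.73 ± 0.574 CPM in *Kat6a*+/+ and 0.278 ± 0.196 CPM in *Kat6a*–/– libraries. The median of the 4 tested genes was 0.24, and 30.0% of all genes were called in that comparison. The mean level of *Pbxip1* was 248 ± 35.3 CPM with *Kat6a* and 336 ± 85.5 CPM without it (SD, n = 4), and the gene was called in 14 of 20 alternatives. It was not called without *Kat6a*+/+ replicate 3 or 4 or *Kat6a*–/– replicate 3 or 4, by edgeR or without the litter block (FDR 0.0553 to 0.0750). In differentiating NSPCs 6 of 8 were called, all lower, beside 54.4% of all genes called and 27.7% called lower, and the median of the 8 was −3.09. Of the 8, 4 had means below 1 CPM in *Kat6a*–/– and 1 in *Kat6a*+/+ libraries. Genes near 0 in *Kat6a*–/– passed the low-count filter through the other genotypes and could only come out lower, so the direction adds little. *Dlx1*, *Dlx2*, *Dlx5*, *Sp9*, *Dcx* and *Pax6* of this list are also among the markers below. The largest falls were in *Sp9* (−5.41, SE 0.76, limma FDR 0.00011), *Dcx*, a microtubule protein of migrating neurons and a known MEIS2 target (−4.51, SE 0.49, limma FDR 1.8e-05), and *Dlx5* (−4.03, SE 0.64, limma FDR 0.00024). Means in *Kat6a*+/+ and *Kat6a*–/– libraries were 8.83 and 0.387 CPM for *Sp9*, 39.3 and 4.55 CPM for *Dcx* and 2.54 and 0.0283 CPM for *Dlx5*. Over the alternatives the estimate ran from −6.03 to −4.30 for *Sp9* and from −6.37 to −3.64 for *Dlx5*. *Pax6*, which works with MEIS2 in olfactory bulb neurons, had a log2 fold-change of 0.08 in proliferating (limma FDR 0.473) and −0.07 in differentiating NSPCs (limma FDR 0.392). The count of 6 was 2 without *Kat6a*–/– replicate 1 and 0 without replicate 3, 3 without quality weights and 2 with litter as a fixed term.

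Retinoic acid, a signal that can raise *Meis1* and *Meis2*, was followed through 18 genes. In proliferating NSPCs 8 were tested, with a median of −0.18, and 1 was called higher and 1 lower, beside 30.0% of all genes called. *Rarb*, a retinoic acid receptor gene, rose (1.96, SE 0.26, limma FDR 0.00020), from 2.48 ± 0.83 to 8.94 ± 1.84 CPM (SD, n = 4). *Aldh1a3*, an enzyme that makes retinoic acid, fell (−1.32, SE 0.37, limma FDR 0.0171), a call that was lost with litter terms (FDR 0.0622) and without *Kat6a*–/– replicate 4 (FDR 0.0632). In differentiating NSPCs 9 of 11 were called, 8 of them higher, beside 54.4% of all genes called and 26.7% called higher. The median over the 11 was 1.21. The largest rises were in *Cyp26b1*, which degrades retinoic acid (2.89, SE 0.29, limma FDR 1.1e-05), the receptor gene *Rarg* (1.48, SE 0.14, limma FDR 8.0e-06) and *Dhrs3*, a retinaldehyde reductase (1.30, SE 0.24, limma FDR 0.00080). *Dhrs3* was at −0.46 (FDR 0.56) without *Kat6a*–/– replicate 3. The count of 9 was 3 without that replicate, 3 without *Kat6a*–/– replicate 1, 6 in edgeR, 5 without quality weights and 3 with litter as a fixed term. *Rarb* in proliferating and *Cyp26b1* and *Rarg* in differentiating NSPCs were called in each of 20 alternatives.

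Markers of cell types moved with genotype in the differentiating cultures in which *Meis1* and *Meis2* were lower, beside 54.4% of all genes called, 27.7% lower and 26.7% higher. Of 9 ventral telencephalon and interneuron markers, cells in which *Meis2* is known to be expressed, 8 were tested and 7 were called lower in *Kat6a*–/–, and their summed level was 155 to 269 CPM in *Kat6a*+/+, 139 to 250 CPM in *Kat6a*+/– and 33.5 to 94.2 CPM in *Kat6a*–/– libraries. Of these 9 ventral markers, 6 had means below 1 CPM in *Kat6a*–/– and 1 in *Kat6a*+/+ libraries. A marker near 0 in *Kat6a*–/– passed the low-count filter through the other genotypes and could only come out lower. All 6 dividing-cell markers were called lower, with sums of 571 to 950 CPM in *Kat6a*+/+ and 89.2 to 227 CPM in *Kat6a*–/– libraries. Of 9 neuron markers 5 were called lower and 2 higher, and the sums overlapped (586 to 770 and 525 to 911 CPM). Mesenchyme and meninges markers were called higher for 4 of 4 tested, at 32.8 to 66.3 CPM in *Kat6a*+/+ and 43.4 to 277 CPM in *Kat6a*–/– libraries, with *Lum* at 0 in the latter. Of the 8 genes on that list, 5 had means below 1 CPM in *Kat6a*+/+, 4 in *Kat6a*+/– and 4 in *Kat6a*–/– libraries, *Lum* in each genotype. The low-count filter can admit a gene through the genotype where it is higher. Without *Kat6a*–/– replicate 1 the calls numbered 2 of the ventral, 3 of the neuron and none of the mesenchyme markers, and without replicate 3 they numbered 1, 1 and none, while the 6 dividing-cell markers were called in every alternative. Their part in the *Meis1*, *Meis2* and *Pbx4* results was not tested.

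*Meis2* was lower in proliferating NSPCs as well. In these cultures the ventral sums were 53.9 to 82.8 CPM in *Kat6a*+/+ and 89.3 to 104 CPM in *Kat6a*–/– libraries. Of the ventral markers, *Gad2* had no count in any genotype. *Dlx5* and *Dlx6* had none in *Kat6a*–/– and means below 1 CPM in the other genotypes too. Of 4 such markers tested, 2 were called higher and 1 lower. For this and the other marker lists in proliferating NSPCs, 30.0% of all genes were called, 16.2% higher and 13.8% lower. The median log2 fold-change of the 4 tested ventral markers was −0.51. Of the 9, 5 were below 1 CPM in *Kat6a*+/+, 6 in *Kat6a*+/– and 7 in *Kat6a*–/–. That count of 3 was 1 by edgeR, with litter terms and without *Kat6a*–/– replicate 4. Dividing-cell markers were called lower for 2 of 6, with sums of 2450 to 2800 and 1410 to 2530 CPM, and for 0 to 3 under the alternatives. The part of these markers in the *Meis2* and *Pbx4* results was not tested either. Of 10 dorsal progenitor markers 9 were tested, 2 called higher and 4 lower in proliferating and 3 higher and 5 lower in differentiating NSPCs. Their sums were 7300 to 8190 CPM in *Kat6a*+/+ and 5230 to 7250 CPM in *Kat6a*–/– proliferating libraries, but 6130 to 7780 and 8360 to 11900 CPM in differentiating libraries. Astrocyte markers were called higher for 4 of 5 tested in proliferating NSPCs (625 to 788 and 1090 to 1980 CPM), and in differentiating NSPCs 1 of 6 was called higher and 3 lower (1790 to 2520 and 1380 to 4910 CPM). Oligodendrocyte-lineage markers were called higher for 1 of 4 in proliferating NSPCs, and 1 higher and 3 lower in differentiating NSPCs. The endothelial list had 1 tested marker, called lower in differentiating NSPCs, and the 6 microglia markers were never above 0.783 CPM in sum.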

How the data were processed

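The authors aligned reads to mm39 with Rsubread and deposited 1 table of raw counts per library, from featureCounts over RefSeq genes. The fits within each condition were modelled on the study's methods, and the joint fit of all 24 libraries was added here. Protein-coding genes that passed filterByExpr were kept, without *Xist* and Y-linked genes, and scaled by TMM. Proliferating libraries were fitted with limma-voom and litter as a random block (correlation 0.287), differentiating libraries with limma-trend on log2 CPM with quality weights, and all 24 with limma-voom and litter as a random block (correlation 0.00365) for contrasts between conditions. P-values were adjusted by Benjamini-Hochberg over all genes tested, and reflect the spread between libraries of single embryos. The joint fit did not pair the libraries of the 6 embryos that were in both conditions. With embryo as the random block instead of litter, the *Kat6a*–/– interaction was called for 1815 genes, against 1895, and no call of the 6 genes changed. R 4.3.3, limma 3.58.1, edgeR 4.0.16 and DESeq2 1.42.0 were used. Printed CPM carry no weights, so a fitted fold-change can differ from the ratio of means. Left-out fits kept the gene filter and litter correlation. On simulated counts, 80% of changes of 1 log2 unit were recovered in proliferating and 65% in differentiating *Kat6a*–/– vs. *Kat6a*+/+ NSPCs. False calls numbered 12 and 11. The simulation held few changed genes and no effect of litter or library quality, so it does not give the power of the real comparisons. No 2 replicates were alike within sampling noise (chi-square per degree of freedom at least 5.81). The members and lists were chosen with earlier results of these data known. All 6 members are named in each comparison, and from each other list the 3 called genes with the largest change per condition. Some genes are not reported here. Gene positions are from GENCODE vM39. *Pax6*, *Lum*, *Emx1*, *Dlx6* and *Gad2* were named after their values were seen.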

Additional observations from a re-analysis of the deposited data

Results flagged for a closer look

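In proliferating *Kat6a*+/– NSPCs, *Pbx3* was at 43.2, 45.9, 43.0 and 28.7 CPM, and replicate 4 stood apart from the others, with a gap to its nearest neighbour of 0.831 times the range of the group, above the critical value of Dixon's test. This was 1 of 36 groups of 4 examined, and chance marks about 1 group in 20. The replicate came from litter 5063, and the other proliferating library of that litter, *Kat6a*–/– replicate 4, also had the lowest *Pbx3* level of its group (36.9 CPM). Without both libraries, a choice made after the values were seen, the *Pbx3* log2 fold-change was −0.01 in *Kat6a*+/– and 0.02 in *Kat6a*–/– against *Kat6a*+/+ NSPCs, and neither was called.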

How the results depend on the processing

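The direction of every call among the 6 genes was kept in each alternative, and no call was reversed. In *Kat6a*–/– vs. *Kat6a*+/+ NSPCs, 1 of the 6 genes was called in proliferating NSPCs by edgeR and with litter as a fixed term, and 1 to 2 without single libraries. In differentiating NSPCs 5 were called with library totals, and 1 to 5 without single libraries. For *Kat6a*–/– vs. *Kat6a*+/– differentiating NSPCs the count was 1 with litter as a fixed term and 0 to 3 without single libraries. Between conditions in *Kat6a*–/– NSPCs it was 5 without the proliferating libraries of litter 5063 and 2 to 5 without single libraries. The *Kat6a*–/– interaction was called for 1 gene by edgeR, by DESeq2, with library totals, with litter as a fixed term and without litter 5063, and for 0 to 1 without single libraries, in each case *Meis1*. Of 1710 alternative estimates for the 6 genes, 1655 stayed on their side of the threshold, 21 lost a call and 34 gained one. *Dhrs3* was between −0.46 and 1.55 without single differentiating libraries, the lowest without *Kat6a*–/– replicate 3. The cause was not tested.

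Over all genes, *Kat6a*–/– vs. *Kat6a*+/+ calls in differentiating NSPCs numbered 7258, but 3244 by edgeR, 4076 by DESeq2, 3097 without weights, 1785 with litter as a fixed term, 1209 without *Kat6a*–/– replicate 1 and 932 without replicate 3. The share of higher calls was 49.1%, and 31.7% with library totals. In proliferating NSPCs they numbered 3686, but 1936 with litter as a fixed term and 2317 without *Kat6a*+/+ replicate 1. With replicate number as a block, *Kat6a*–/– vs. *Kat6a*+/+ calls among the 6 genes stayed at 2 in proliferating and 3 in differentiating NSPCs, with 3604 and 7211 over all genes, and no call of the 6 genes changed. Same-numbered libraries correlated in their deviations from the group means at −0.468 to 0.481, above 0.1 in 7 of 36 pairs. Low values cannot show that libraries are unpaired, since by their labels some same-numbered libraries of the 2 conditions came from the same embryo. *Pbx4*, with as few as 39 counts in a library, is limited by depth most.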

Other observations

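The proliferating libraries of litter 5063 had the lowest *Meis1* and the highest *Meis3* levels of their groups. *Meis1* was at 21.2 CPM in the *Kat6a*+/– and 23.2 CPM in the *Kat6a*–/– library, against 28.6 to 35.3 CPM and 30.4 to 35.6 CPM in the other 3 libraries of each group. *Meis3* was at 23.2 and 23.8 CPM, against 11.6 to 17.7 CPM and 16.8 to 19.5 CPM. No *Kat6a*+/+ library came from this litter. The differentiating *Kat6a*–/– library of the same litter, from the same embryo as the proliferating one, had the highest *Meis1* level of its group, 26.4 CPM.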
